A study of Caenorhabditis elegans with 18 samples.

Results

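Worms that received a tocotrienol-rich fraction (TRF) before and after hydrogen peroxide were compared with worms that received hydrogen peroxide alone, in whole Caenorhabditis elegans of the wild-type strain N2. The 9 arrays were chosen by their titles, 4 for TRF+H2O2+TRF and 5 for H2O2, out of 18 Affymetrix arrays in the series, and every probe set other than the Affymetrix controls was compared. TRF+H2O2+TRF worms had TRF from hatching until day 3 of adulthood, with a peroxide exposure in between whose dose the labels do not repeat. H2O2 worms had 0.3 mM hydrogen peroxide for 2 h at the L4 stage, the last larval stage, and the labels do not give their age at harvest. All worms grew at 20 °C on plates seeded with the Escherichia coli strain OP50. The remaining arrays, TRF without peroxide (n = 4) and untreated control (n = 5), serve here as a second setting in which TRF can be set against its absence. The labels do not say whether arrays of a group came from separate cultures, so p-values reflect no more than the spread among these arrays, which may be technical. Because RNA came from whole worms, fewer cells of a type and less RNA per cell cannot be told apart.

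Tocotrienols are members of the vitamin E family with an unsaturated side chain, and they scavenge lipid radicals in membranes. Hydrogen peroxide is a reactive oxygen species that cells break down with catalases, peroxiredoxins and glutathione-dependent enzymes. In worms, genes of this defence are controlled largely by SKN-1, the counterpart of mammalian Nrf transcription factors, and by DAF-16, the FOXO factor of insulin signalling, while HSF-1 controls heat shock proteins. SKN-1 targets such as gst-4 and gcs-1 and the DAF-16 target sod-3 are common readouts of oxidative stress in this animal.

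The mean correlation of log2 signals between an array and the other 17 was 0.948 to 0.954 for TRF+H2O2+TRF and 0.940 to 0.948 for H2O2, without overlap. The median signal of an array was 88.5 to 107 in TRF+H2O2+TRF and 79.5 to 112.2 in H2O2. The 3' to 5' ratio of the ubiquitin control probe sets was 8.50 to 14.9 in TRF+H2O2+TRF and 8.45 to 14.8 in H2O2, and that of GAPDH was 0.811 to 1.00 in TRF+H2O2+TRF and 0.746 to 0.876 in H2O2. All 17 markers that define tissues of the worm had a probe set, and 16 of them a mean signal above the 40th percentile of all probe sets, the exception being the sperm phosphatase gene gsp-3. The muscle myosin gene unc-54 showed signals of 786 to 1488 in TRF+H2O2+TRF and 991 to 1647 in H2O2, and the sperm gene msp-3 of 92.8 to 494 in TRF+H2O2+TRF and 56.4 to 582 in H2O2. Of the 17 markers, 2 had higher and 15 lower means in TRF+H2O2+TRF, where 50.8% of all genes had a lower mean. In limma 2 markers had an unadjusted p under 0.05, cbd-1 (-0.25) and gsp-3 (-1.44), against 3.08% of all genes. H2O2 replicates 2 and 3 stood apart in their brightest probe sets. Their mean signals were 745 and 740, against 687 to 707 on the TRF+H2O2+TRF arrays and 706 to 713 on the other H2O2 arrays, and the plot of list medians shows each gene list with and without them.

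No probe set passed the threshold between TRF+H2O2+TRF and H2O2. With limma and Benjamini-Hochberg adjustment, 0 of 22548 probe sets had an adjusted p under 0.05 (0%), and the smallest adjusted p was 0.999. At an unadjusted p under 0.05 limma counted 707 probe sets, 3.14% of those tested, of which 281 were higher (1.25%) and 426 lower (1.89%) in TRF+H2O2+TRF. A count of 1127 would be expected at that threshold in the absence of any difference. The methods' t-test counted 816 probe sets at the same threshold (3.62%), 283 higher (1.26%) and 533 lower (2.36%), and 0 after Benjamini-Hochberg adjustment. The signals of the 4 TRF+H2O2+TRF arrays did not overlap those of the 5 H2O2 arrays for 282 probe sets, 1.25% of those tested. Of these, 83 were higher (0.368%) and 199 lower (0.883%). In the absence of any difference, 4 arrays separate from 5 in either direction with a probability of 0.0159, so this share is no sign of a difference.

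The data bound the size of differences more tightly for bright genes than for dim ones. The distance from the log2 fold change to the end of its 95% interval had a median of 0.709 over all probe sets and of 0.395 over the 9019 probe sets above the 60th percentile of mean signal. For 90% of those bright probe sets it was at most 0.613. The 1181 probe sets past 2-fold in either direction were nearly all dim, with 31 above the 40th percentile, where the geometric mean signal was 48.0. Above the 60th percentile, 83 probe sets were past 1.5-fold. The median log2 fold change was -0.24 in the dimmest 10% of the probe sets, reached 0.07 at intermediate signals and was -0.05 in the brightest 10%.

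**Figure D1:**
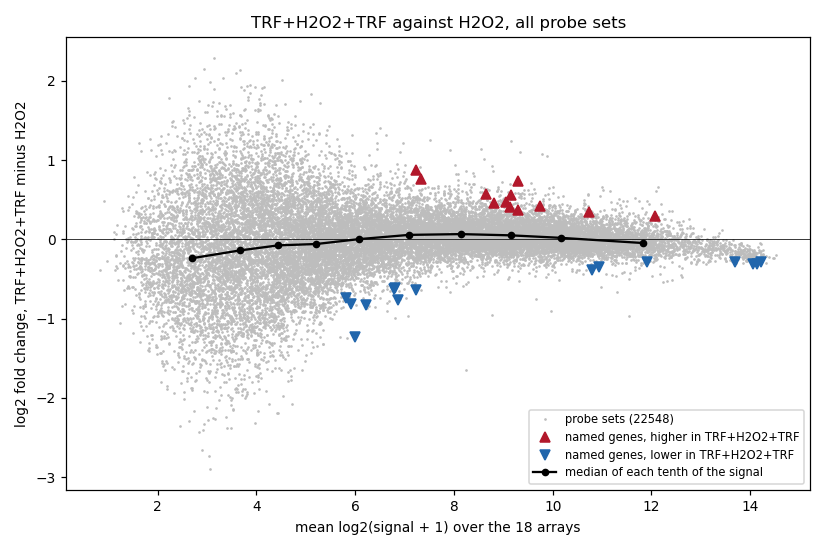
Log2 fold change of TRF+H2O2+TRF over H2O2 (vertical axis) against mean log2(signal + 1) over the 18 arrays (horizontal axis) for 22548 probe sets, with the 27 genes named for non-overlapping groups as triangles and the median of each of 10 signal classes as a line. The spread narrows with signal, the line stays between -0.24 and 0.07, and 0 probe sets passed the adjusted threshold.

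Genes were named where signals of the 2 groups did not overlap and the mean lay above the 40th percentile. Out of 13529 probe sets above that percentile, this left 47 candidates higher and 73 lower in TRF+H2O2+TRF. The separation of the groups below follows from that choice and is a description. Such a separation has a probability of 0.0159 for each probe set in the absence of any difference, so these counts are no finding in themselves. F42C5.9 had signals of 735, 806, 759 and 947 in TRF+H2O2+TRF, against 608, 383, 440, 626 and 411 in H2O2. Its log2 fold change was 0.74 ± 0.18 (SE), with an unadjusted p of 0.00134 from limma, the smallest among the genes named as higher. The lowest TRF+H2O2+TRF array lay above H2O2 replicates 1 and 4, the highest of that group. baz-2, which encodes a bromodomain protein, had 690, 577, 539 and 616 in TRF+H2O2+TRF, against 418, 362, 404, 414 and 447 in H2O2 (log2 fold change 0.56 ± 0.15, SE). All H2O2 arrays were close together here. C03B1.13 had 221, 194, 212 and 228 in TRF+H2O2+TRF and 169, 95.7, 105, 96.2 and 131 in H2O2, a log2 fold change of 0.87 ± 0.23 (SE). H2O2 replicate 1 came nearest to the TRF+H2O2+TRF arrays.

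cpt-4, of the carnitine palmitoyltransferase family that moves fatty acids into mitochondria, had 230, 245, 185 and 187 in TRF+H2O2+TRF, against 152, 98.4, 91.8, 177 and 121 in H2O2 (0.76 ± 0.25, SE). ugt-25, a UDP-glucuronosyltransferase of the kind that conjugates foreign compounds, had 539, 542, 521 and 663 in TRF+H2O2+TRF, against 383, 408, 372, 372 and 515 in H2O2 (0.47 ± 0.16, SE). In both genes the groups came close, through H2O2 replicate 4 in cpt-4 and H2O2 replicate 5 in ugt-25. cmd-1, which encodes calmodulin, had 1838, 1714, 2013 and 1840 in TRF+H2O2+TRF, against 1617, 1561, 1478, 1309 and 1348 in H2O2 (0.34 ± 0.12, SE). sago-1, an Argonaute protein that binds secondary small RNAs, had 732, 651, 683 and 597 in TRF+H2O2+TRF, against 435, 445, 562, 538 and 535 in H2O2 (0.41 ± 0.15, SE). pac-1, a protein of cell polarity, had a mean of 496 ± 79.4 in TRF+H2O2+TRF and 333 ± 52.9 in H2O2 (SD, n = 4 and 5). The other 4 genes named as higher were F52C9.3 at 0.42, F19C6.2 at 0.46, nra-1 at 0.37, a copine tied to nicotinic receptors, and chdp-1 at 0.30, a protein with a calponin homology domain. Each of these 12 genes had an adjusted p of 0.999.

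The 15 genes named as lower ran from genes of low or middling signal with larger log2 fold changes to bright genes with smaller ones. ptr-17, of the patched-related family of membrane proteins, had the largest size, with 48.7, 26.3, 63.6 and 21.7 in TRF+H2O2+TRF, against 96.6, 90.1, 68.1, 99.2 and 86.7 in H2O2 (-1.24 ± 0.36, SE). TRF+H2O2+TRF replicate 3 came within a few units of H2O2 replicate 3. spp-14, a saposin-like protein of the family that includes antimicrobial peptides, had 1622, 1564, 1586 and 1526 in TRF+H2O2+TRF, against 2300, 1830, 2258, 2159 and 1795 in H2O2. Its log2 fold change was -0.39 ± 0.12 (SE) with an unadjusted p of 0.00678 from limma, and it was -0.39 after quantile normalization as well. cnc-4, a caenacin and thus another antimicrobial peptide gene, had 1551, 1451, 1572 and 1693 in TRF+H2O2+TRF, against 2092, 2175, 1754, 1730 and 2243 in H2O2 (-0.34 ± 0.12, SE). In both peptide genes the TRF+H2O2+TRF arrays were tightly grouped below the lowest H2O2 array.

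cdr-1, named for its response to cadmium, had 75, 111.9, 103.7 and 78.7 in TRF+H2O2+TRF, against 164, 128, 160, 118 and 136 in H2O2 (-0.62 ± 0.24, SE). ubxn-3, a cofactor of the CDC-48 segregase, had 79.8, 119, 127 and 157 in TRF+H2O2+TRF, against 181, 180, 185, 193 and 174 in H2O2 (-0.64 ± 0.23, SE). The H2O2 arrays hardly varied in ubxn-3, while those of TRF+H2O2+TRF were spread more widely, all of them lower. rsp-6, a splicing factor of the SR family, had means of 3296 ± 274 in TRF+H2O2+TRF and 4034 ± 330 in H2O2 (SD, n = 4 and 5; log2 fold change -0.29). The 4 ribosomal protein genes rps-25 (-0.31), rps-29 (-0.29), rpl-8 (-0.28) and rpl-31 (-0.32) are taken up with their family below. The remaining genes were K03D3.2 (-0.77), C32H11.7 (-0.63), F22E5.1 (-0.83), Y53G8AL.1 (-0.82) and lim-9 (-0.75), a LIM domain protein. Of the 15 genes, 7 had a mean signal under 100 in TRF+H2O2+TRF, and the adjusted p of each was 0.999. Where a named gene had further probe sets, these did not always share its sign, with 0 of 1 doing so for baz-2 and rpl-8, 1 of 2 for pac-1 and cmd-1, and 2 of 5 for lim-9.

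**Figure D2:**
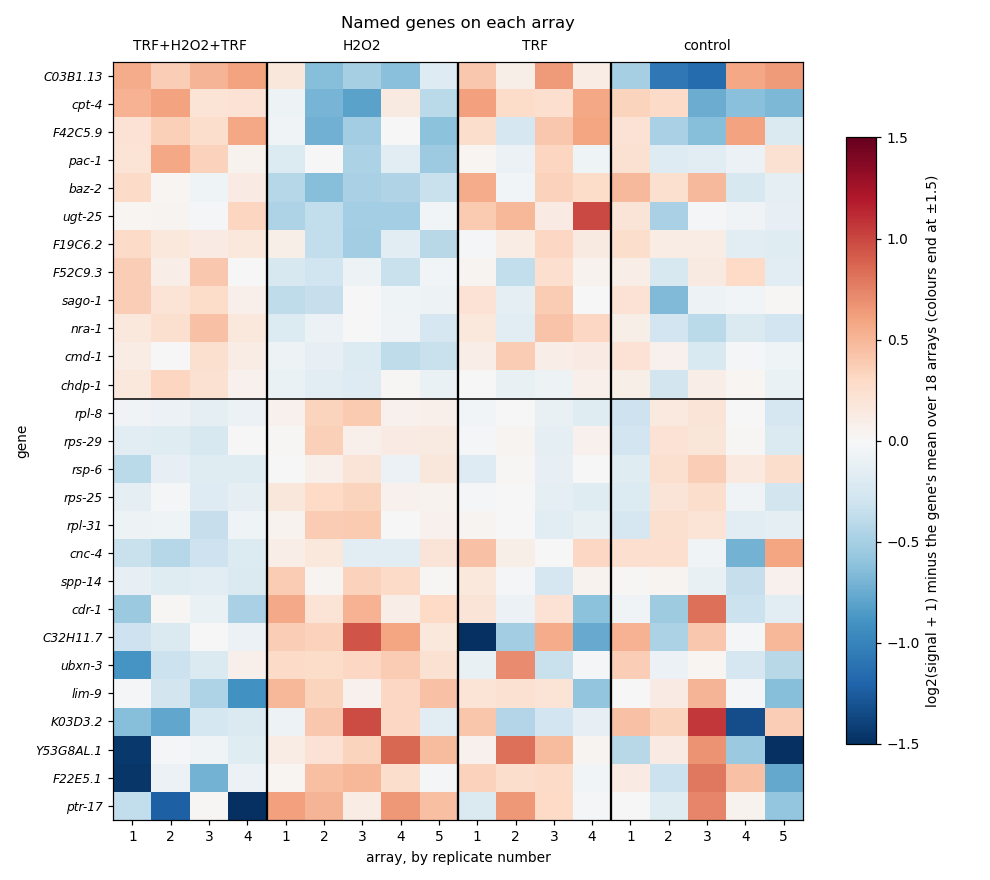
Heat map of log2(signal + 1) minus the gene's mean over 18 arrays for the 27 named genes (rows) on each array (columns, grouped as TRF+H2O2+TRF, H2O2, TRF and control), with red above and blue below the gene's mean. The upper 12 genes are paler or blue in H2O2 and red in most TRF+H2O2+TRF arrays, and the lower 15 show the opposite. TRF and control arrays differ from gene to gene, with all TRF arrays above the gene's mean for several genes, cpt-4, ugt-25, cmd-1 and C03B1.13 among them.

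The TRF and control arrays were not used to choose these genes, but they are not independent of the other arrays. Arrays with the same replicate number deviated together between TRF+H2O2+TRF and TRF (best match in 4 of 4) and between H2O2 and control (4 of 5). In TRF against control 11 of the 12 higher genes had a higher mean, as did 9772 of all 17118 genes, and 3 had an unadjusted p under 0.05 from limma, where 3.67% of all genes and 3.73% of all probe sets did. The 3 were cpt-4 at a log2 fold change of 0.72, ugt-25 at 0.60 and nra-1 at 0.41. ugt-25 averaged 767 ± 201 in TRF and 500 ± 82.8 in control (SD, n = 4 and 5). Of the 15 lower genes, 8 had the same sign and 0 had an unadjusted p under 0.05. A test of the difference between the 2 log2 fold changes over all 18 arrays called 0 of the 22548 probe sets (smallest adjusted p 1.00, limma) and had an unadjusted p under 0.05 in 3 of the higher and 5 of the lower genes. Those 8 had been selected for the size of one of the 2 terms, and 2.25% of all genes and 2.33% of all probe sets had such a p. The test took the 18 arrays as independent although equal replicate numbers deviated together, which limits its unadjusted p-values. With a replicate block it called 0 probe sets as well.

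Among transcription factors and kinases of stress responses, 16 of 21 had a higher and 5 a lower mean in TRF+H2O2+TRF, with a median log2 fold change of 0.05 beside -0.005 over all 17118 genes. None passed the adjusted threshold in limma, and 1 had an unadjusted p under 0.05, against 3.08% of all genes. That gene was hlh-30, the worm counterpart of the autophagy and lysosome factor TFEB, with 755, 381, 548 and 377 in TRF+H2O2+TRF, against 369, 348, 240, 428 and 271 in H2O2 (0.61 ± 0.24, SE). TRF+H2O2+TRF replicates 1 and 3 were high, and the other arrays of that group lay below H2O2 replicate 4. skn-1 had 922, 771, 929 and 864 in TRF+H2O2+TRF, against 675, 879, 769, 535 and 681 in H2O2 (0.32 ± 0.16, SE; unadjusted p = 0.0680, limma). Its groups overlapped through H2O2 replicate 2, and 1 of 2 further skn-1 probe sets had the same sign. daf-16 had means of 441 ± 20.2 in TRF+H2O2+TRF and 473 ± 76.7 in H2O2 (SD, n = 4 and 5), a log2 fold change of -0.09 with a 95% interval of -0.43 to 0.26.

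The enzymes that remove superoxide and peroxide showed small differences with intervals on both sides of 0. Of 6 superoxide dismutases and catalases, 2 had higher and 4 lower means (median -0.09), and 0 had an unadjusted p under 0.05. sod-3, a mitochondrial superoxide dismutase and DAF-16 target, had 198, 306, 228 and 330 in TRF+H2O2+TRF, against 285, 242, 260, 283 and 287 in H2O2. Its log2 fold change was -0.06 with an interval of -0.48 to 0.36, and the TRF+H2O2+TRF arrays lay on both sides of the H2O2 arrays. ctl-2, the peroxisomal catalase, had 2867, 1867, 1842 and 2307 in TRF+H2O2+TRF, against 2722, 1469, 2021, 1850 and 2029 in H2O2 (0.14 ± 0.18, SE). Replicate 1 was the highest array of both groups. sod-1, the cytosolic enzyme, averaged 5445 ± 602 in TRF+H2O2+TRF and 6248 ± 978 in H2O2 (SD, n = 4 and 5; log2 fold change -0.19, interval -0.48 to 0.10).

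Of 26 peroxidases, peroxiredoxins and thioredoxin system genes, 13 were higher and 13 lower in mean. The abundant peroxiredoxin gene prdx-2 had 9364, 10191, 9222 and 9287 in TRF+H2O2+TRF, against 9976, 12588, 11028, 8848 and 10274 in H2O2 (-0.14 ± 0.11, SE). trxr-2, the mitochondrial thioredoxin reductase, had 357, 223, 322 and 269 in TRF+H2O2+TRF, against 201, 156, 146, 212 and 246 in H2O2. Its log2 fold change was 0.61 ± 0.22 (SE), with an unadjusted p of 0.0167 and an adjusted p of 0.999 from limma, and TRF+H2O2+TRF replicate 2 lay within the H2O2 range. trxr-1, the cytosolic form, averaged 383 ± 75.1 in TRF+H2O2+TRF and 299 ± 38.5 in H2O2 (SD, n = 4 and 5; 0.34 ± 0.18, SE).

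Glutathione synthesis and SKN-1 phase II genes had 11 higher and 6 lower means out of 17, with a median of 0.02, which was -0.0085 after quantile normalization. gcs-1, the rate-limiting enzyme of glutathione synthesis, had 818, 559, 761 and 659 in TRF+H2O2+TRF, against 837, 514, 584, 633 and 892 in H2O2 (0.03 ± 0.19, SE). gst-4, the glutathione S-transferase used as a SKN-1 reporter, had 735, 1259, 1398 and 1105 in TRF+H2O2+TRF, against 873, 1745, 563, 1099 and 1393 in H2O2. Its log2 fold change was 0.05 with an interval of -0.58 to 0.68, and single H2O2 arrays lay above and below the whole TRF+H2O2+TRF range. Of 45 glutathione S-transferases, 16 had higher and 29 lower means (median -0.10), and the 2 with the smallest p, gst-32 and gst-11, were dim, with means of 19 and 11.7 in TRF+H2O2+TRF.

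**Figure D3:**
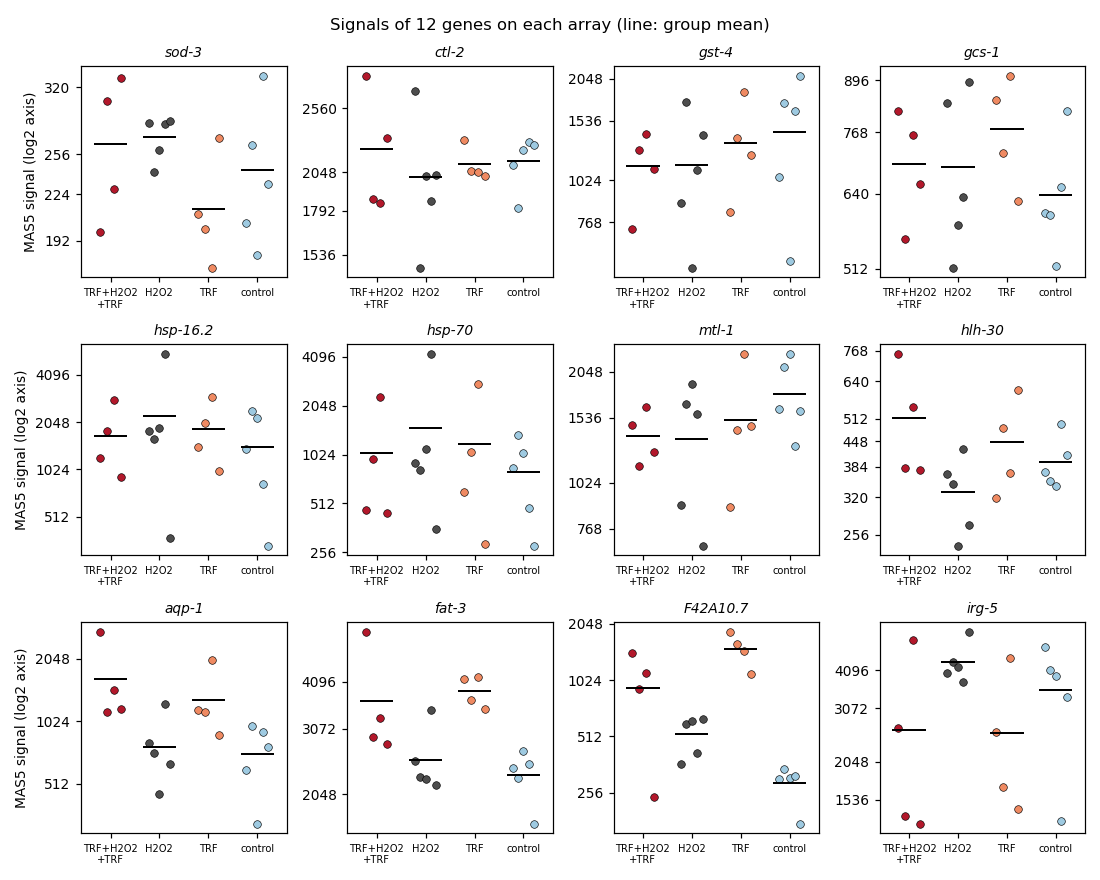
MAS5 signal (vertical log2 axis, a range of its own per panel) of 12 stress, lipid, transport and immune genes on each array, in TRF+H2O2+TRF, H2O2, TRF and control, with a line at the arithmetic mean of each group. sod-3, ctl-2, gst-4, gcs-1 and mtl-1 overlap widely between TRF+H2O2+TRF and H2O2, hsp-16.2 and hsp-70 span the widest H2O2 range, and F42A10.7 is highest in TRF.

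Heat shock genes varied more between arrays of a group than between the groups. hsp-16.2, a small heat shock protein, had 1204, 1785, 2811 and 912 in TRF+H2O2+TRF, against 1804, 1595, 1877, 5556 and 376 in H2O2 (-0.08 ± 0.57, SE). hsp-70, the heat-inducible chaperone, had 468, 966, 2326 and 449 in TRF+H2O2+TRF, against 905, 822, 1104, 4259 and 356 in H2O2 (-0.33 ± 0.61, SE). Replicate 3 was the highest TRF+H2O2+TRF array for both genes, replicate 4 the highest H2O2 array and replicate 5 the lowest. Without H2O2 replicate 4, the log2 fold changes were 0.36 for hsp-16.2 and 0.17 for hsp-70. The 12 small heat shock proteins were 6 higher and 6 lower in mean (median 0.04, and -0.06 without H2O2 replicates 2 and 3). The member sip-1, found in oocytes and embryos, was the one without overlap, where 0.917% of all genes were lower without overlap. Its means were 21037 ± 285 in TRF+H2O2+TRF and 24857 ± 3523 in H2O2 (SD, n = 4 and 5; -0.02 after quantile normalization). Of the cytosolic HSP70 and HSP90 chaperones, 3 had higher and 9 lower means out of 12.

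Genes of the endoplasmic reticulum stress response were higher in 16 of 19 members, with a median of 0.10, 0.06 after quantile normalization and -0.08 without H2O2 replicates 2 and 3. atf-6, a transcription factor of the unfolded protein response, was the one with an unadjusted p under 0.05 (0.0255, limma), against 3.08% of all genes. It had 467, 490, 433 and 368 in TRF+H2O2+TRF, against 345, 256, 357, 352 and 326 in H2O2 (0.43 ± 0.17, SE), with the groups apart by a narrow margin. xbp-1, another factor of this response, had a lower mean, with 2717, 2850, 1808 and 2731 in TRF+H2O2+TRF and 3026, 3278, 3186, 3220 and 2616 in H2O2 (-0.30 ± 0.15, SE). hsp-4, the BiP chaperone that XBP-1 controls, averaged 2216 ± 250 in TRF+H2O2+TRF and 2673 ± 534 in H2O2 (SD, n = 4 and 5; -0.26 ± 0.15, SE). The mitochondrial chaperone gene hsp-6 had a log2 fold change of 0.04 with an interval of -0.30 to 0.39. The further probe set of atf-6, of xbp-1 and of hsp-6 had the opposite sign in each case.

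Metal and iron genes were evenly split, 8 higher and 8 lower out of 16. ftn-1, which encodes the iron store ferritin, had 3217, 1998, 2347 and 1866 in TRF+H2O2+TRF, against 821, 2115, 1245, 1855 and 1665 in H2O2 (0.66 ± 0.25, SE; unadjusted p = 0.0224, limma). H2O2 replicate 2 reached into the TRF+H2O2+TRF range. In TRF against control ftn-1 had a log2 fold change of 0.90. mtl-1, a metallothionein, had 1471, 1132, 1644 and 1238 in TRF+H2O2+TRF, against 889, 1679, 1893, 1575 and 690 in H2O2 (0.12 ± 0.27, SE), with the H2O2 arrays on both sides.

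Infection response genes included some of the larger differences among bright genes. irg-5 had 2650, 1357, 5128 and 1281 in TRF+H2O2+TRF, against 4004, 4358, 4194, 3750 and 5472 in H2O2 (-0.97 ± 0.33, SE; unadjusted p = 0.0109, limma). Replicates 1, 2 and 4 of TRF+H2O2+TRF were below every H2O2 array and replicate 3 was above all of them but replicate 5. irg-4 had 758, 501, 1440 and 431 in TRF+H2O2+TRF, against 866, 922, 2039, 1636 and 1443 in H2O2 (-0.91 ± 0.34, SE), again with replicate 3 as the high array. In TRF against control irg-5 had a log2 fold change of -0.48 and irg-4 of 0.38, both with an unadjusted p above 0.05. Over all 70 lysozymes, saposins and other antimicrobial genes, 34 had higher and 36 lower means (median -0.003), and at an unadjusted p under 0.05 there were 1 higher and 5 lower, against 1.15% higher and 1.93% lower among all genes. C-type lectins were higher in 91 and lower in 129 of 220 members (median -0.11), and 66 of the 220 had a mean signal above the 40th percentile.

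The pals genes, a family induced by intracellular pathogens in this worm, had the largest median of the 51 gene lists, at 0.42, with 17 of 23 members higher (73.9%, against 49.2% of all genes), 0.48 after quantile normalization and 0.26 without H2O2 replicates 2 and 3. Of the 23, 13 had a mean signal above the 40th percentile. In limma 2 had an unadjusted p under 0.05 (8.7%, against 3.08% of all genes), and 0 were without overlap between the groups. pals-32 had 374, 171, 89.8 and 198 in TRF+H2O2+TRF, against 150, 81.3, 42.2, 177 and 49.6 in H2O2 (1.10 ± 0.48, SE; unadjusted p = 0.0401, limma). pals-5, a common reporter of this response, had 105.8, 62.8, 44.7 and 63.1 in TRF+H2O2+TRF, against 55.8, 39.8, 28.8, 40.6 and 35.3 in H2O2 (0.74 ± 0.35, SE). Replicate 1 was the highest array of both genes in TRF+H2O2+TRF, and both genes overlapped between the groups. The list mean on the log2 scale ran from 5.12 to 6.53 in TRF+H2O2+TRF and from 4.85 to 6.02 in H2O2, and in TRF against control the list median was 0.41. The median was 0.18 without TRF+H2O2+TRF replicate 1 and 0.78 without TRF+H2O2+TRF replicate 3.

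Among detoxification families, UDP-glucuronosyltransferases and cytochrome P450 genes had more higher than lower means in TRF+H2O2+TRF. Of 64 UDP-glucuronosyltransferases, 43 were higher (median 0.15), and the median was -0.07 without H2O2 replicates 2 and 3. ugt-51 had 736, 275, 359 and 223 in TRF+H2O2+TRF, against 233, 146, 191, 151 and 339 in H2O2 (0.82 ± 0.34, SE). Of 73 cytochrome P450 genes, 45 were higher (median 0.08, and -0.04 without those arrays). cyp-34A9, one of these oxidases, had 842, 356, 414 and 392 in TRF+H2O2+TRF, against 313, 128, 231, 332 and 406 in H2O2 (0.83 ± 0.33, SE). TRF+H2O2+TRF replicate 1 stood well above the rest in both genes, and the other arrays overlapped with H2O2 replicate 5. In TRF against control the log2 fold changes were 0.84 for ugt-51 and 0.47 for cyp-34A9.

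The aquaglyceroporin gene aqp-1, a channel for water and glycerol in the intestine, had 2753, 1130, 1443 and 1175 in TRF+H2O2+TRF, against 807, 718, 460, 1240 and 636 in H2O2. Its log2 fold change was 1.05 ± 0.29 (SE), with an unadjusted p of 0.00348 and an adjusted p of 0.999 from limma. H2O2 replicate 4 alone reached into the TRF+H2O2+TRF range, and leaving out single arrays moved the log2 fold change between 0.76 and 1.24. In TRF against control it was 0.88.

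Desaturases and elongases of fatty acids had 8 higher and 14 lower means out of 22 (median -0.05). fat-3, the delta-6 desaturase of polyunsaturated fatty acid synthesis, had 5582, 2921, 3280 and 2787 in TRF+H2O2+TRF, against 2507, 2272, 2248, 3443 and 2168 in H2O2 (0.49 ± 0.20, SE; unadjusted p = 0.0322, limma). Replicate 1 was the high array of TRF+H2O2+TRF, and H2O2 replicate 4 exceeded the 3 others. The log2 fold change of fat-3 in TRF against control was 0.76. The fatty acid desaturase genes fat-5 (0.10, interval -0.39 to 0.59) and fat-7 (-0.23, interval -0.88 to 0.42) had intervals on both sides of 0.

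Of 69 genes of fatty acid breakdown and acyl-CoA metabolism, 43 had higher means (median 0.07, and -0.08 without H2O2 replicates 2 and 3). acs-2, an acyl-CoA synthetase of mitochondrial fat oxidation, had 2910, 1126, 985 and 852 in TRF+H2O2+TRF, against 1126, 582, 439, 870 and 1525 in H2O2 (0.64 ± 0.39, SE). lipl-4, a lysosomal lipase tied to lifespan in worms, had 39, 41.1, 33.7 and 43.6 in TRF+H2O2+TRF, against 18.3, 8.3, 5.1, 15.6 and 25 in H2O2 (1.56 ± 0.47, SE). Its groups did not overlap, but the gene was dim, below the 40th percentile of mean signal. far-2, an abundant fatty acid and retinol binding protein, was lower without overlap, at 17824 ± 770 in TRF+H2O2+TRF and 20972 ± 2534 in H2O2 (SD, n = 4 and 5), and its log2 fold change of -0.23 was -0.01 after quantile normalization.

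F42A10.7, the 1 probe set that passed in TRF against control (0.00443% of those tested, log2 fold change 2.38, adjusted p = 0.00144, limma), was less regular in the peroxide groups. It had 1427, 916, 1114 and 243 in TRF+H2O2+TRF, against 363, 599, 622, 418 and 632 in H2O2, a log2 fold change of 0.59 ± 0.41 (SE; unadjusted p = 0.177, limma). Replicates 1 to 3 of TRF+H2O2+TRF lay above all H2O2 arrays and replicate 4 below them. TRF averaged 1503 and control 290 (n = 4 and 5). The test of the difference between the 2 log2 fold changes gave an unadjusted p of 0.00221 and did not pass after adjustment over all probe sets (smallest adjusted p 1.00, limma). That test took all arrays as independent.

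Cytosolic ribosomal proteins had lower means in TRF+H2O2+TRF in 70 of 70 genes, with a median log2 fold change of -0.19, which was -0.0043 after quantile normalization. In 17 of the 70 the groups did not overlap, 24.3% against 0.917% of all genes, and 17 had an unadjusted p under 0.05, all of them lower, where 1.93% of all genes were lower at that threshold. rps-25 had 16465, 17821, 15821 and 16216 in TRF+H2O2+TRF, against 20206, 22141, 22799, 18908 and 18628 in H2O2. rpl-8 had 18270, 17906, 17143 and 17791 in TRF+H2O2+TRF, against 19928, 23987, 24946, 19838 and 20061 in H2O2. After quantile normalization their log2 fold changes were -0.12 and -0.07. H2O2 replicates 2 and 3 were the highest arrays for both genes, and the list mean was 14.08 on each of these 2 arrays, against 13.64 to 13.76 in TRF+H2O2+TRF and 13.76 to 13.82 on the other H2O2 arrays.

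Control replicates 2 and 3 were also the highest of their group in this list mean, at 13.88 and 13.89. Without H2O2 replicates 2 and 3 the ribosomal median was -0.08. The 100 probe sets with the highest mean signal, whatever their gene, were all lower in TRF+H2O2+TRF, 27 of them without overlap. Their median was -0.21, -0.0074 after quantile normalization and -0.10 without those 2 arrays. Ribosomal genes such as rpl-8, rps-25 and rpl-31 are among these 100, so they are not a set apart from the ribosomal list. The part of these 2 bright arrays in the ribosomal difference was not tested beyond these values. Mitochondrial ribosomal proteins, which are dimmer, were lower in 44 of 58 members (median -0.07, and 0.01 without those arrays), and proteasome subunits in 27 of 33 (median -0.11, and -0.02 without them). pas-4, a proteasome alpha subunit, had 4024, 4123, 4010 and 3775 in TRF+H2O2+TRF, against 4290, 5819, 5175, 4359 and 4400 in H2O2 (-0.26 ± 0.12, SE), without overlap.

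**Figure D4:**
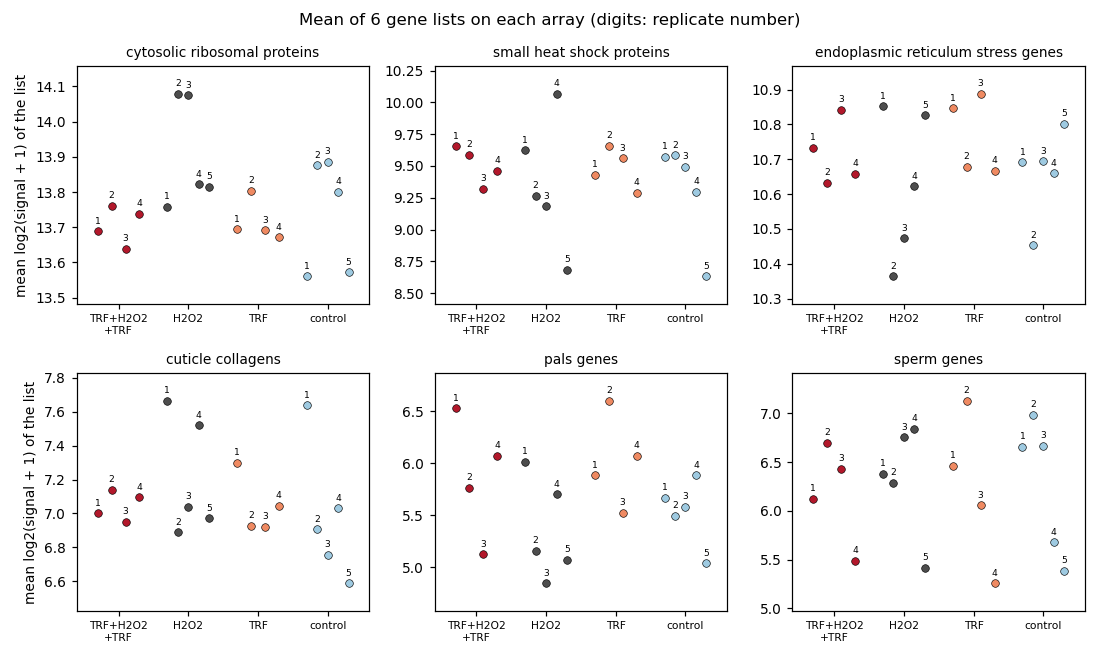
Mean log2(signal + 1) of 6 gene lists on each array (vertical axes, one range per panel), by group, with the replicate number above each point. Ribosomal means are 14.08 in H2O2 replicates 2 and 3 and 13.64 to 13.76 in TRF+H2O2+TRF, and in all 6 lists the ranges of these groups overlap.

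Cuticle collagens, the structural proteins of the worm's outer layer, had the smallest median of the lists, at -0.21, with 109 of 146 lower (74.7%, against 50.8% of all genes), -0.18 after quantile normalization and -0.36 without H2O2 replicates 2 and 3. col-119 had 16911, 15820, 15266 and 18892 in TRF+H2O2+TRF, against 21351, 20714, 20544, 21553 and 17707 in H2O2 (-0.29 ± 0.10, SE; -0.07 after quantile normalization). TRF+H2O2+TRF replicate 4 lay above H2O2 replicate 5. The list mean was 6.95 to 7.14 in TRF+H2O2+TRF, against 7.67 and 7.52 in H2O2 replicates 1 and 4 and 6.89 to 7.04 in the other H2O2 arrays.

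Reproductive gene lists were lower in most members. Of the oocyte and eggshell genes 24 of 29 were lower (median -0.13, and -0.07 after quantile normalization), as were 23 of 32 germline genes (median -0.11) and 55 of 79 sperm genes (median -0.18, and -0.0013 without H2O2 replicates 2 and 3). The sperm median was -0.48 without H2O2 replicate 5 and turned to 0.14 without TRF+H2O2+TRF replicate 4. cbd-1, an eggshell protein, had 6370, 7474, 7455 and 5880 in TRF+H2O2+TRF, against 7500, 8150, 8848, 7316 and 8393 in H2O2 (-0.25 ± 0.11, SE), and its further probe set had the opposite sign. The sperm list mean ranged from 5.49 to 6.70 in TRF+H2O2+TRF and from 5.41 to 6.84 in H2O2, far wider than the distance between the groups. All 5 genes for yolk proteins, the vitellogenins, had lower means, with a median of -0.18 that was 0.02 after quantile normalization. Body wall muscle genes (13 higher of 32, median -0.03), neuropeptide genes (49 of 86, median 0.03, and -0.0028 after quantile normalization) and pharynx genes (12 of 19, median 0.02, and -0.0069 after quantile normalization) had 0 members with an unadjusted p under 0.05 in limma. Without H2O2 replicates 2 and 3 the medians were -0.20 for body wall muscle, -0.08 for neuropeptides and -0.28 for the pharynx.

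Nuclear hormone receptors were higher in 151 of 258 members (median 0.09, and -0.0098 without H2O2 replicates 2 and 3), with 9 at an unadjusted p under 0.05, 3.49% beside 3.08% of all genes. F-box genes were higher in 171 of 310 (median 0.04), with fbxa-86 at 34.9, 18.8, 15 and 27 in TRF+H2O2+TRF and 5, 5.1, 6.8, 2 and 4.4 in H2O2, dim in all. Chemoreceptor genes were lower in 789 of 1261 (median -0.18, beside -0.005 over all genes), but 28 of the 1261 had a mean signal above the 40th percentile, and dim probe sets as a whole had negative medians. Of the 51 lists, 36 had a median within 0.1 of 0, 3 had more than 70% of members higher and 9 more than 70% lower.

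**Figure D5:**
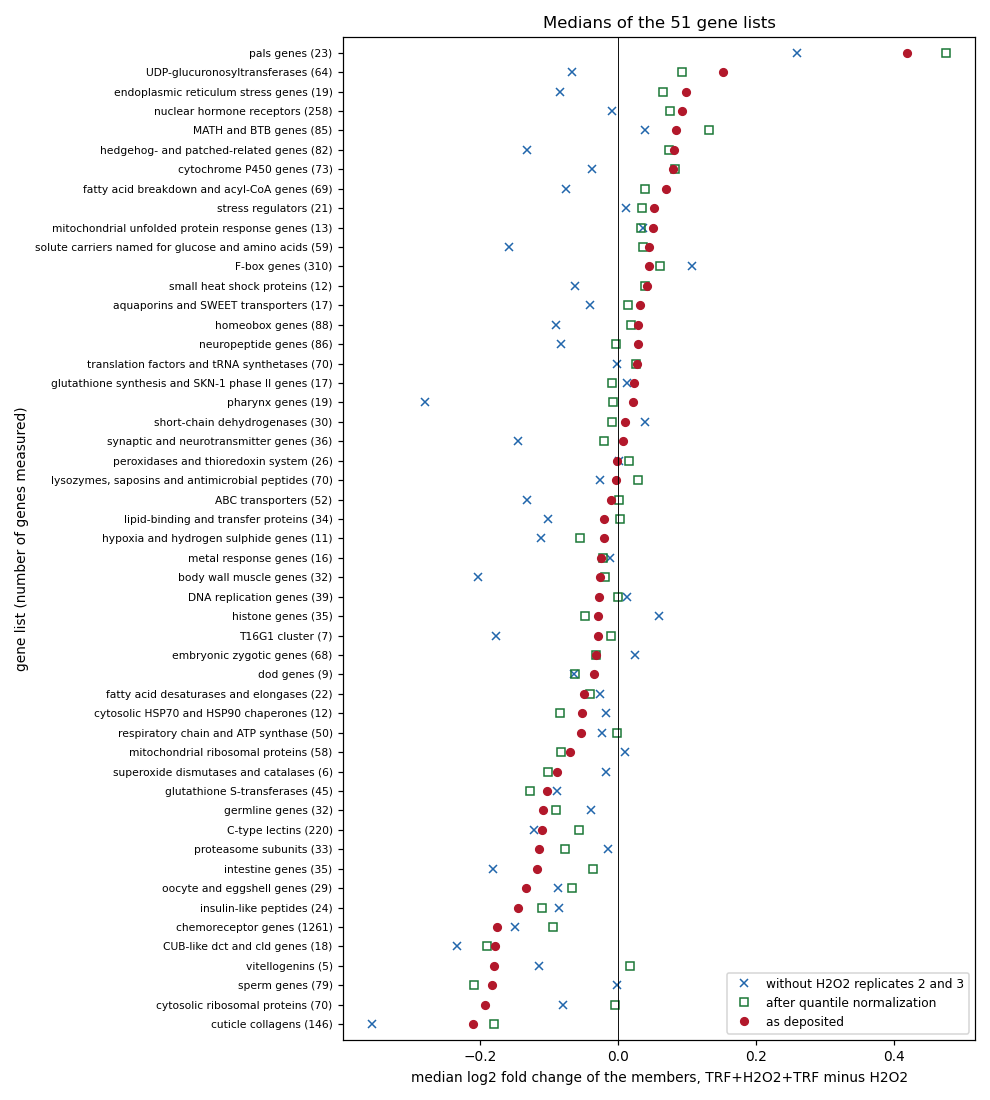
Median log2 fold change of TRF+H2O2+TRF over H2O2 (horizontal axis) for the 51 gene lists (rows, with the number of genes measured), as deposited (filled circles), after quantile normalization (open squares) and without H2O2 replicates 2 and 3 (crosses). Medians run from -0.21 for cuticle collagens to 0.42 for pals genes, and ribosomal proteins move from -0.19 as deposited to -0.0043 after quantile normalization.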

How the data were processed

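Total RNA of 18 samples was hybridised to Affymetrix arrays, 1 per sample. The authors deposited MAS5 signals, that is, intensity values on a linear scale, made with MAS5 and the Affymetrix Expression Console per the submitters' processing notes, with versions not given there. Leaving out the highest and lowest 2% of signals, the mean was 500.1 on each array, so the deposited signals share a common scale. No genome build was given in the sources used. Of 22625 probe sets, 77 Affymetrix controls were left out and 22548 tested, 20766 with 1 gene symbol, 887 with several and 895 with none here. The symbols of 20701 were in the gene table. For gene lists, each of 17118 genes was represented by its brightest probe set on average.

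Signals were taken as log2(signal + 1), a scale that understates the differences of dim genes, and compared with limma's lmFit and eBayes (limma 3.58.1, R 4.3.3), using a variance trend, two-sided p-values and a Benjamini-Hochberg threshold of 0.05 over all probe sets. Log2 fold changes are TRF+H2O2+TRF minus H2O2. The number of arrays limits the precision. The series design names an unpaired t-test at 0.05, given as the methods' t-test. Named genes were, among probe sets with 1 symbol, a mean not below the 40th percentile and no overlap between the groups, the 12 with the smallest p and the 5 with the largest log2 fold change in each direction. To these came the 2 members of each list with the smallest p and 16 stress and lipid genes whatever their result. The genes irg-4, prdx-2, pals-5, acs-2 and T06C12.9 were added after their values were seen. The comparison, the named genes and the 51 lists were chosen with earlier results of these data known. Lists are described by counts and medians and were not tested.

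Equal replicate numbers of TRF+H2O2+TRF and H2O2 had residual correlations of 0.0216 to 0.327 above the 40th percentile and were the best match in 2 of 4, so the arrays were not treated as paired. Scripts were tested on simulated data. Alternatives were 2 signal filters, quantile normalization, median centring, a pseudocount of 16, no variance trend, array weights, all 18 arrays in the fit, a replicate block, the methods' t-test and each array left out. Leaving out H2O2 replicates 2 and 3 together was added after seeing the data.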

Additional observations from a re-analysis of the deposited data

Results flagged for a closer look

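In 43 named genes each of the 2 groups was examined for an array far from the others of its group, 86 gene and group pairs in all, and 4 stood out by Dixon's criterion, which chance alone meets in about 1 of 20 groups. ugt-25 had a signal of 663 in TRF+H2O2+TRF replicate 4, with 521 to 542 on the other arrays of the group, and of 515 in H2O2 replicate 5, with 372 to 408 on the others. rpl-31 had 13400 in TRF+H2O2+TRF replicate 3, with 16100 to 16200 on the others. Y53G8AL.1 had 21.2 in TRF+H2O2+TRF replicate 1, with 52.6 to 59.1 on the others.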

How the results depend on the processing

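The count of probe sets past the adjusted threshold was 0 under each alternative run, and the smallest adjusted p in any of them was 0.0664, for T06C12.9 with no variance trend. The 27 genes named for non-overlapping groups kept their sign in each of the 19 or 20 settings in which they were run. Most of these settings could not have turned it, as the genes were chosen for groups without overlap. Of the alternatives, only quantile normalization and median centring could have done so, and the kept sign is no further test of these genes. The number of probe sets with an unadjusted p under 0.05 was 302 with the 40th percentile filter and 206 with the 60th percentile filter, where fewer probe sets were tested, against 707 in all, and ran from 563 to 1008 with single arrays left out. With the replicate block it was 1049, with 0 past the adjusted threshold (smallest adjusted p 0.944). F42A10.7 was the 1 named gene past the threshold in TRF against control, and the count was 0 with no variance trend and with the methods' t-test, and 1 to 1 with single arrays left out.
Several genes turned sign, most of them near 0 but also vit-5 (-0.203 as deposited) and rhy-1 (0.277) and, with single arrays left out, hsp-70: after quantile normalization gcs-1 was -0.0221, vit-2 0.0679 and vit-5 0.0147, with array weights hsp-6 was -0.0224, with the replicate block hsp-6 was -0.00198 and mtl-1 -0.0985, and without H2O2 replicates 2 and 3 gst-4 was -0.0105, gcs-1 -0.170 and rhy-1 -0.112. With single arrays left out the log2 fold changes ran from -0.175 to 0.0715 for sod-3, -0.176 to 0.241 for gst-4, -0.0662 to 0.136 for gcs-1, -0.611 to 0.360 for hsp-16.2, -0.0964 to 0.130 for hsp-6, -0.0985 to 0.265 for mtl-1, -0.830 to 0.172 for hsp-70 and -0.106 to 0.260 for fat-5. None of these genes was called, and the cause was not tested. Of the 51 list medians, 19 turned sign without H2O2 replicates 2 and 3, 27 with at least 1 single array left out, and 19 in neither case. Beside the values in the report, the median of superoxide dismutases and catalases was 0.07, of pharynx genes 0.18, of body wall muscle genes 0.16, of neuropeptide genes 0.19 and of germline genes -0.21 without TRF+H2O2+TRF replicate 3. The median of metal genes was 0.15 without TRF+H2O2+TRF replicate 2, of UDP-glucuronosyltransferases 0.06 without TRF+H2O2+TRF replicate 3, of small heat shock proteins 0.33 and of cuticle collagens -0.10 without H2O2 replicate 4, and of stress regulators 0.15 without H2O2 replicate 1.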

Other observations

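Arrays of H2O2 varied more among themselves than those of TRF+H2O2+TRF. The standard deviation of the log2 signal had a median of 0.275 in TRF+H2O2+TRF and 0.322 in H2O2 over the 13529 probe sets above the 40th percentile, and it was larger in H2O2 for 63.9% of them. Without H2O2 replicate 5 the H2O2 median was 0.311. TRF had a median of 0.259 and control of 0.288.

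The log2 fold changes of TRF+H2O2+TRF over H2O2 and of TRF over control had a Pearson correlation of 0.0857 across all 22548 probe sets and of 0.441 across the 9019 above the 60th percentile. The 2 comparisons share no arrays, but equal replicate numbers deviated together between TRF+H2O2+TRF and TRF (best match in 4 of 4) and in part between H2O2 and control (4 of 5), and probe sets are not independent, so the values are a description.

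Among the patched- and hedgehog-related genes 44 had higher and 38 lower means (median 0.08, and -0.13 without H2O2 replicates 2 and 3), and 0 were higher and 6 lower at an unadjusted p under 0.05 in limma, against 1.15% higher and 1.93% lower among all genes. Besides ptr-17 these included grl-30, with 28, 3.0, 6.8 and 3.1 in TRF+H2O2+TRF and 12.5, 19.5, 34.6, 26.9 and 30.7 in H2O2. MATH and BTB genes were higher in 54 of 85 (median 0.08) and homeobox genes in 46 of 88 (median 0.03, and -0.09 without those arrays). Replicate 1 was the highest TRF+H2O2+TRF array for aqp-1, fat-3, acs-2, cyp-34A9, ugt-51, hlh-30, ftn-1 and pals-32 alike.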
